A study of Mus musculus with 6 samples.

Results

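Rab GTPases were examined in purified mouse platelets as 1 family of 41 genes among the 9822 genes with counts. They were chosen by name: protein-coding genes whose symbol is Rab followed directly by a number, which leaves out partners such as Rab3gap1 or Rab11fip1. RefSeq holds 59 such mouse symbols, and 18 of them had no row among the genes analysed here (Rab3a, Rab3b, Rab3c, Rab4a, Rab9b, Rab15, Rab17, Rab20, Rab23, Rab25, Rab26, Rab33a, Rab34, Rab38, Rab39, Rab39b, Rab42 and Rab44). Each of the 9822 rows held over 0.5 CPM (counts relative to the library total) in at least 3 of the 6 libraries. Rab6b and Rab40b passed that level in 3 mutant libraries but only 1 wild-type library each. These 2 thus reached it through the mutant libraries, which favoured a rise beforehand. Counts over the 41 therefore describe the members with a row and are not a sample of the whole family.

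Platelets of Nxf1+/C587R males, heterozygous for a missense change in Nxf1, were set against those of wild-type littermates, all on the BALB/c background. Nxf1 encodes the main receptor for mRNA export from the nucleus. Platelets were purified from single males, and suspensions of 1 genotype in which over 98% of flow cytometry events were CD41+ were pooled. PolyA RNA of 3 mutant and 3 wild-type pools was sequenced, with 1 pool of each genotype in each of 3 batches. The design text gives 3 preparation days, and the batch numbers of the labels are read as those days. The number of animals per pool is unknown, and the wild-type libraries also belong to an earlier series, per the design text. In whole platelet RNA, fewer platelets expressing a gene and less RNA per platelet cannot be told apart.

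Rab proteins are small GTPases that mark membranes. In the GTP-bound state a Rab recruits effectors such as tethers and motor adaptors, a guanine nucleotide exchange factor (GEF) loads the GTP, and a GTPase-activating protein (GAP) ends the cycle. Prenyl groups anchor the Rab, which is taken back off the membrane after the cycle. In platelets, Rab27b acts in dense granule formation and secretion, Rab32 and Rab38 serve lysosome-related organelles such as dense granules, Rab4 proteins have been linked to alpha granule release, and Rab5, Rab7 and Rab11 proteins organise endosomes through which cargo reaches granules.

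Libraries held 25189231 to 29421549 counts, of which the 41 members took 0.280 to 0.300% in mutant and 0.261 to 0.268% in wild-type libraries. Levels are given as CPM, reads of a gene relative to the library total after TMM scaling (trimmed mean of M-values). Nxf1 itself had 2.95, 2.61 and 4.30 CPM in mutant libraries 1 to 3 and 3.17, 3.08 and 4.94 CPM in wild-type libraries 1 to 3, and a missense change need not alter its transcript level. All 14 platelet markers had a row, and their summed level was 49868 to 53890 CPM in mutant and 37627 to 45180 CPM in wild-type libraries, with 7 markers higher and 1 lower by edgeR. B cell markers, of which 12 of 12 had a row, summed to 295.2 to 365.1 CPM in mutant and 376.4 to 503.9 CPM in wild-type libraries, with 5 lower and 0 higher. T cell markers (8 of 9 with a row, Cd3e without) summed to 20.9 to 24.7 CPM in mutant and 25.2 to 31.1 CPM in wild-type libraries, with 0 called. Of 9 neutrophil markers 2 had a row, summing to 9.88 to 16.2 CPM in mutant and 7.85 to 14.4 CPM in wild-type libraries with 0 called, and Elane, Mpo, Ly6g, Camp, Ltf, Ngp and Cxcr2 had none. Of 8 monocyte and macrophage markers, 6 had a row (Cd14 and Cx3cr1 had none), summing to 1771 to 2085 CPM in mutant and 1154 to 1592 CPM in wild-type libraries, with 1 higher and 1 lower. Of 5 endothelial markers, which include genes that platelets also express, 3 had a row (Tek and Emcn had none), summing to 1442 to 1510 CPM in mutant and 1135 to 1425 CPM in wild-type libraries, with 0 called. Both libraries of batch 1 stood apart by erythroid transcripts: 8 of 9 markers with a row (Hbb-bt without, and Ahsp not found by symbol) summed to 31537 CPM in its mutant and 35728 CPM in its wild-type library, against 3991 to 4578 CPM in the other mutant and 4318 to 4438 CPM in the other wild-type libraries. With the batch as a block, 10 platelet markers were higher and 1 lower, 0 and 8 B cell, 0 and 3 T cell, 0 and 0 neutrophil, 1 and 1 monocyte and macrophage, 3 and 0 endothelial, and 3 and 1 erythroid markers (1 and 0 without the block). The wild-type library of batch 3 was the lowest of the 6 for 22 of the 41 members (53.7%), and for 26.3% of all genes. That standing moved with its TMM factor, the largest of the 6 at 1.19, against 0.912 to 1.05 in mutant and 0.955 to 0.959 in the other wild-type libraries. Without TMM factors it was the lowest for 4 members (9.76%) and 5.37% of all genes, and its summed Rab level was the highest of the wild-type libraries. The part of these cell types and libraries in the Rab results was not tested beyond leaving libraries out.

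Start regions are shown of the member with the largest fold change (Rab6b), the 1 member that fell (Rab9), the most abundant member (Rab11a) and the 1 member whose window held a cAMP response element (Rab5a). Each runs from 250 bases before to 50 bases after the annotated start, 5′ to 3′ on the gene's strand, from RefSeq (GRCm38.p6). They lie at chr9:103111824-103112123 (plus strand), chrX:166479818-166480117 (minus), chr9:64737707-64738006 (minus) and chr17:53478984-53479283 (plus). The window of Rab6b lies downstream of the start of its gene span. Capitals mark matches to CCGGAAG, the ETS core, in Rab11a and to TGACGTCA, the cAMP response element, in Rab5a.
Rab6b: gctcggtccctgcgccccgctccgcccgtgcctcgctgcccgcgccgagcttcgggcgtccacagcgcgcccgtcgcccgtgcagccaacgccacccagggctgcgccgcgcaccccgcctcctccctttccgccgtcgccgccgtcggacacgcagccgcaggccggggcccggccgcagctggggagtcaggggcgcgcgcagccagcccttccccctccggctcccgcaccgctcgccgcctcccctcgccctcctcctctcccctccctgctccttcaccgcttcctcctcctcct
Rab9: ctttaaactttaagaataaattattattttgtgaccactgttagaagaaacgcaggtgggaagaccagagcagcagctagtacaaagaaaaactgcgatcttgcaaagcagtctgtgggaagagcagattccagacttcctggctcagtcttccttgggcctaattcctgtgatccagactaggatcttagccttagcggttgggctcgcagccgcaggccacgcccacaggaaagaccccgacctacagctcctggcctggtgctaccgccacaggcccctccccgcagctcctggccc
Rab11a: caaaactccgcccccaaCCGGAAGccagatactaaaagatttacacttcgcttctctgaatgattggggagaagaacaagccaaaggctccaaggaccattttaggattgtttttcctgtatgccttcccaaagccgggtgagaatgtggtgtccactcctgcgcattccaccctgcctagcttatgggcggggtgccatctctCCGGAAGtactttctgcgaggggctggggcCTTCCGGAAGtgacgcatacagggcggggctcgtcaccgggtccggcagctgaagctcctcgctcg
Rab5a: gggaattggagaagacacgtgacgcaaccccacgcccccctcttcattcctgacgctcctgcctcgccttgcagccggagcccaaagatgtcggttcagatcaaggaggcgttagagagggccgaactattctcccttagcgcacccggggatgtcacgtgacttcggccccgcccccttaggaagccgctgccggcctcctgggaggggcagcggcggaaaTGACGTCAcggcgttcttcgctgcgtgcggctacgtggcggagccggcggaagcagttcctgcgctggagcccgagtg
GC content was 78.7% in the window of Rab6b, 53.3% in Rab9, 56.3% in Rab11a and 65.3% in Rab5a, with 42, 9, 16 and 30 CpG dinucleotides. Windows were found for 34 members, with a median GC content of 63% and 25 CpG, against 52.7% and 7 CpG over 27025 promoters of the same length. Searched on both strands, CCGGAAG was present in 4 of the 34 (11.8%; Rab8a, Rab11a, Rab14 and Rab24) and in 9.12% of all promoters, and in none of the 12 members with a window that rose. In Rab11a a match and its reverse complement overlap within CTTCCGGAAG. TGACGTCA was present in Rab5a only (2.94% of the 34, 1.88% of all). AGATAA, the GATA core, and TGACTCA, the core of NF-E2 sites, were present in 0 of the 34 and in 11.4% and 5.17% of all promoters. A match is a run of letters in this window, and a missing match says nothing of the factor.

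Levels between members were compared per kilobase of gene length. Rab11a, a Rab of recycling endosomes, was the most abundant, at 304.4 ± 23.0 CPM per kilobase in mutant and 261.4 ± 37.6 in wild-type pools (n = 3 each, SD). The early endosome member Rab5c followed at 145.9 ± 12.7 (SD) in mutant and 110.6 ± 15.9 (SD) in wild-type pools. Rab22a, Rab7, Rab10 and Rab27b came next, between 71.3 and 88.4 CPM per kilobase in mutant and between 63.6 and 80.4 in wild-type platelets. Of these, Rab22a, Rab10, Rab27b and Rab7 stood in that order in wild-type platelets with touching ranges of mean ± SD, while in mutant platelets Rab7 stood above Rab10. Over all 41, the ranges of neighbours touched in 28 of the 40 steps of the mutant order and 27 of those of the wild-type order. The lowest member was Rab33b in mutant platelets (0.279 CPM per kilobase) and Rab6b in wild-type platelets (0.1005 CPM per kilobase). The largest moves in rank were those of Rab12, rank 17 in mutant and 21 in wild-type platelets, and Rab36, rank 21 in mutant and 25 in wild-type platelets. These levels rest on the deposited gene lengths. Rab7 has 624 bases there and 2159 in the longest GENCODE coding transcript, and Rab22a has 1909 and 7155. With GENCODE lengths, chosen after the data were seen, Rab7 moved from rank 4 to 13 and Rab22a from 3 to 11, while Rab11a and Rab5c kept ranks 1 and 2.

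**Figure D1:**
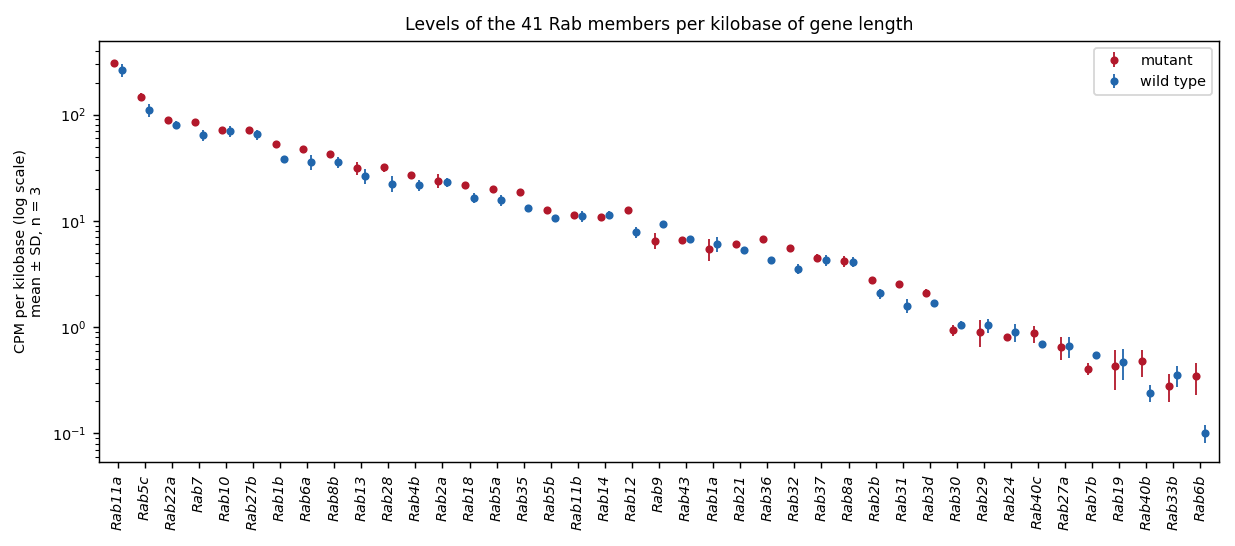
Levels of the 41 Rab members in mutant (left point of each pair) and wild-type platelets (right point), in CPM per kilobase on a log axis, mean ± SD, n = 3 libraries each. Rab11a (304.4 in mutant, 261.4 in wild type) and Rab5c (145.9 in mutant, 110.6 in wild type) lead, and the lowest members lie under 1 CPM per kilobase.

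Of the 41 members, 14 were higher and 1 was lower with the mutant genotype (quasi-likelihood test of edgeR, Benjamini-Hochberg adjusted over all genes at 0.05), and 26 did not pass. That is 36.6% called, with 34.1% higher, where 22.1% of all 9822 genes were called, 12.9% higher and 9.16% lower. The median log2 fold change was 0.25 over the 41 and -0.043 over all genes. Within batches 1, 2 and 3 it was 0.20, 0.21 and 0.34 over the 41. The 14 platelet markers had a median log2 fold change of 0.36. The median level was 7.93 CPM per kilobase over the 41 and 1.33 over 9074 genes with a GENCODE coding transcript. The part of level in these shares was not tested. The ranges of the 2 genotypes were apart for 22 members, 20 of them with the mutant higher, while 36.3% of all genes did not overlap, 20.4% with the mutant higher. The difference was positive in all 3 batches for 24 members and negative in all 3 for 4, against 30.1% and 30.7% of all genes. Summed over the 41, the level was 3075, 3084 and 2855 CPM in mutant and 2724, 2749 and 2259 CPM in wild-type libraries 1 to 3. Without Rab11a and Rab27b, the most abundant members by CPM, the sums were 1821, 1814 and 1727 CPM in mutant and 1602, 1570 and 1341 CPM in wild-type libraries. Without TMM factors the sums were 2804, 2963 and 3000 CPM in mutant and 2613, 2625 and 2678 CPM in wild-type libraries, and 20 members did not overlap, 17 with the mutant higher (34.8% of all genes, 16.5% with the mutant higher). Of the 39 members other than Rab6b and Rab40b, 12 were higher (30.8%) and 1 lower, with a median log2 fold change of 0.22. With the batch as a block, 21 of the 41 were higher and 1 lower by edgeR, where 22.0% of all genes were higher and 18% lower.

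In fits of genotype alone, the number called depended on the libraries kept, for the members and for all genes. None of the fits with a library or batch left out carried the block, and leaving out 1 library unpairs its batch. Without mutant replicate 1 there were 7 higher and 1 lower (7.19% and 7.99% of all genes), and without mutant replicate 2 also 7 and 1 (6.66% and 7.41%). Without wild-type replicate 1 there were 8 and 1 (9.19% and 8.34%), and without wild-type replicate 2 there were 11 and 1 (9.26% and 8.09%). Without batch 1 there were 5 and 1 (5.98% and 6.21%), and without batch 2 there were 4 and 0 (4.94% and 5.29%). Rab7, Rab5c and Rab6a were each lost without mutant replicate 1, mutant replicate 2, wild-type replicate 1, batch 1 or batch 2, and Rab18 in those fits and without wild-type replicate 2. Rab5a was lost in all of these and without wild-type replicate 3. Their highest adjusted p by any alternative was 0.189 for Rab7, 0.261 for Rab5c, 0.213 for Rab6a, 0.194 for Rab18 and 0.270 for Rab5a. With all libraries and the batch as a block, all 15 called members stayed called by edgeR. The adjusted p of that fit was 7.08e-09 for Rab7, 1.09e-08 for Rab5c, 7.84e-09 for Rab6a, 1.25e-07 for Rab18 and 4.28e-06 for Rab5a. Rab9 was lost without mutant replicate 3 or batch 2 (highest adjusted p 0.119), Rab28 without mutant replicate 1, mutant replicate 2 or batch 2 (0.108), and Rab1b without mutant replicate 2, batch 1 or batch 2 (0.127). Rab40b was lost without mutant replicate 1, wild-type replicate 1, wild-type replicate 2, batch 1 or batch 2 (0.402). Rab12 and Rab36 were called in all 9 fits that left out 1 library or 1 batch.

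Other scalings and tools moved the count less. Upper-quartile factors gave 13 higher and 1 lower (12% and 10.4% of all genes), library size alone 13 and 1 (9.73% and 9.25%), and leaving out the 10 most abundant genes 11 and 1 (10.8% and 10.3%). DESeq2 gave 12 and 1 (12.6% and 8.15%) and limma-voom 13 and 1 (13% and 9.07%). DESeq2 with the batch as a block gave 19 and 1 (17.8% and 10.3%). Restricted to a mean level of 10 CPM or more, 26 members were tested, with 10 higher and 2 lower. Of the 3017 genes kept, 24.0% were higher and 25% lower, or 49.0% called. The median log2 fold change was then 0.09 over the 26 members and -0.020 over the genes kept. Over both directions together, the members showed no clear excess of calls among genes of this level. Members called higher were a larger part, and members called lower a smaller part, than among the genes kept. The scaling was recomputed on the genes kept, which moved the same genes by -0.17 on the log2 scale. The part of level was not tested.

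**Figure D2:**
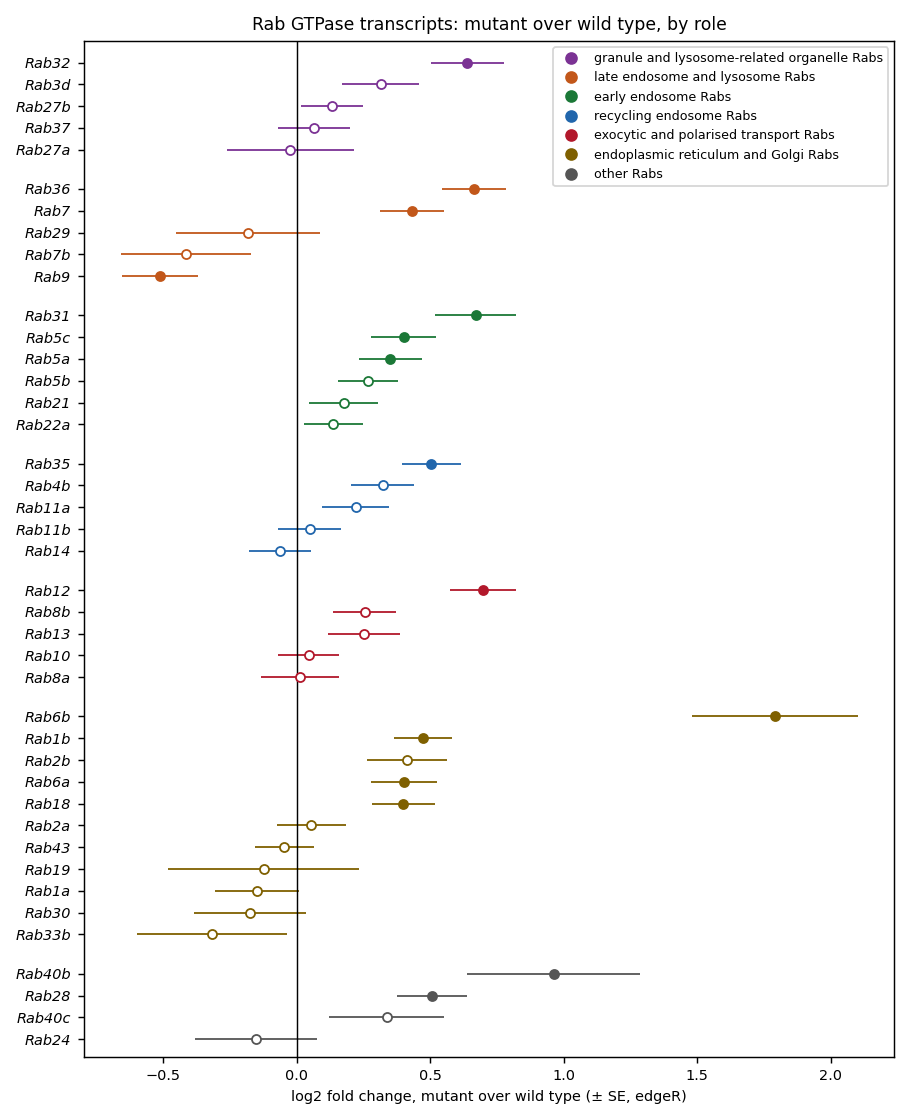
Log2 fold change of each Rab member, mutant over wild type, with its SE from edgeR, grouped by role (colours). Filled points passed the adjusted threshold of 0.05 and open points did not; 14 filled points lie right of 0 and 1, Rab9, lies left.

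The role groups held 4 to 11 members each, and no group was tested as a set. Their counts stand beside shares of 34.1% higher over the 41 members, and 12.9% higher and 9.16% lower over all genes. Among Rabs of granules and lysosome-related organelles, 1 of 5 rose. Rab32, which guides cargo to lysosome-related organelles (Entrez 67844, chr10:10545039-10558207, mm10 as are all gene positions here), had 11.04, 11.9 and 11.01 CPM in mutant libraries and 7.61, 7.86 and 6.36 CPM in wild-type libraries. The genotypes did not overlap, with a log2 fold change of 0.64 ± 0.14 (SE; edgeR adjusted p = 0.00201), and the call was lost without batch 2 (adjusted p = 0.0518 by edgeR). Rab27b, the secretory Rab of dense granules (Entrez 80718, chr18:69979131-70141633), had 522.2, 520.8 and 479.0 CPM in mutant libraries and 485.0, 499.2 and 406.4 CPM in wild-type libraries. It held 17.4% of the summed Rab level, and the genotypes overlapped, since wild-type library 2 stood above mutant library 3. Its log2 fold change of 0.13 ± 0.12 (SE) did not pass (adjusted p = 0.480 by edgeR, 0.0994 with the batch as a block and 0.0430 by DESeq2 with the block). Rab27a, its closest relative and the pigment and lymphocyte granule Rab, had 1.57, 1.76 and 2.45 CPM in mutant libraries and 1.47, 2.20 and 2.20 CPM in wild-type libraries, with no change called (-0.025 ± 0.24, SE, adjusted p = 0.955 by edgeR). Rab3d, a Rab of secretory granules, averaged 8.12 ± 0.748 CPM (SD) in mutant and 6.53 ± 0.400 CPM (SD) in wild-type pools (n = 3 each), which passed only in edgeR's fit with the batch as a block (adjusted p = 0.135 by edgeR, 0.0109 with the block and 0.164 by DESeq2 with the block). Rab37 had a log2 fold change of 0.064 and did not pass.

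Late endosome and lysosome members moved in both directions, with 2 higher and 1 lower of 5. Rab7, which directs late endosomes to lysosomes (Entrez 19349, chr6:87999106-88045270), had 51.1, 57.6 and 51.9 CPM in mutant libraries and 41.5, 43.2 and 34.4 CPM in wild-type libraries. Its log2 fold change was 0.43 ± 0.12 (SE; edgeR adjusted p = 0.0122), and the call was lost in 5 of the 9 fits with a library or batch left out. Rab36, described at the Golgi and late endosomes (Entrez 76877, chr10:75036895-75054748), had 17.0, 18.2 and 18.2 CPM in mutant libraries and 11.6, 11.6 and 10.6 CPM in wild-type libraries. Every mutant library was above every wild-type one, and the log2 fold change was 0.66 ± 0.12 (SE; edgeR adjusted p = 0.000409). Rab9, which acts in the return of mannose 6-phosphate receptors from late endosomes to the Golgi (Entrez 56382, chrX:166457251-166479867), had 11.1, 9.27 and 7.94 CPM in mutant libraries and 14.1, 14.2 and 12.3 CPM in wild-type libraries. It fell in each batch and had a log2 fold change of -0.51 ± 0.14 (SE; edgeR adjusted p = 0.0123). Beside it, 5 of 12 B cell markers were also lower in these libraries, and their part in the value of Rab9 was not tested. Rab7b (1.02 ± 0.129 CPM in mutant, 1.37 ± 0.0940 CPM in wild-type pools, n = 3 each, SD) did not overlap between genotypes but did not pass (log2 fold change -0.42, adjusted p = 0.252 by edgeR). Rab29 had -0.18 and did not pass.

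Early endosome members had positive values throughout, with 3 of 6 rising. Positive values were also found for 30 of all 41 members and for 4485 of the 9822 genes. Rab5c, 1 of the 3 Rab5 proteins that fuse early endosomes (Entrez 19345, chr11:100715003-100738215), had 226.2, 250.9 and 211.5 CPM in mutant libraries and 171.5, 200.05 and 150.2 CPM in wild-type libraries, with a log2 fold change of 0.40 ± 0.12 (SE; edgeR adjusted p = 0.0224). Rab5a (Entrez 271457, chr17:53479234-53507678) had 48.7, 48.5 and 44.6 CPM in mutant libraries and 39.1, 40.0 and 32.2 CPM in wild-type libraries, with 0.35 ± 0.12 (SE, adjusted p = 0.0379 by edgeR). Both sets of values were apart between genotypes, but with a library or batch left out Rab5c was called in 4 of 9 fits and Rab5a in 2 of 9. Rab5b averaged 40.3 ± 1.03 CPM (SD) in mutant and 33.5 ± 2.42 CPM (SD) in wild-type pools (n = 3 each) and passed only with the block (adjusted p = 0.0974 by edgeR, 0.000856 with the block). Rab31, a relative of Rab22a that works between the Golgi and endosomes (Entrez 106572, chr17:65651726-65772752), had 8.95, 8.70 and 8.75 CPM in mutant libraries and 4.68, 6.28 and 5.65 CPM in wild-type libraries. The mutant values lay close together and above the rest, with a log2 fold change of 0.67 ± 0.15 (SE; edgeR adjusted p = 0.00285), and the call was lost without batch 1 (adjusted p = 0.0945 by edgeR). Rab22a (170.4, 158.8 and 176.9 CPM in mutant libraries, 166.8, 147.2 and 146.3 CPM in wild-type libraries) overlapped and did not pass (0.14 ± 0.11, SE, adjusted p = 0.426 by edgeR), nor did Rab21 (0.18).

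Of 5 recycling endosome members 1 rose. Rab35, a Rab of fast endosomal recycling and actin (Entrez 77407, chr5:115631904-115647158), had 42.0, 40.7 and 37.6 CPM in mutant libraries and 29.9, 27.6 and 27.3 CPM in wild-type libraries. The gap between genotypes exceeded the spread within either, with a log2 fold change of 0.50 ± 0.11 (SE; edgeR adjusted p = 0.00259), and the call was lost without batch 1 and without batch 2 (adjusted p up to 0.138 by edgeR). Rab11a had 732.6, 749.0 and 648.8 CPM in mutant libraries and 637.6, 680.1 and 511.6 CPM in wild-type libraries, or 23.6% of the summed Rab level. Mutant was above wild type within each batch, but wild-type library 2 exceeded mutant library 3, and the log2 fold change of 0.22 ± 0.13 (SE) passed only with the block (adjusted p = 0.238 by edgeR, 0.00293 with the block). Rab4b, the 1 Rab4 gene with a row, averaged 31.8 ± 1.31 CPM (SD) in mutant and 25.5 ± 3.11 CPM (SD) in wild-type pools (n = 3 each) and lay just outside the threshold (adjusted p = 0.0595 by edgeR, 6.32e-05 with the block). Rab11b (0.047) and Rab14 (-0.064) had values near 0 and did not pass.

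**Figure D3:**
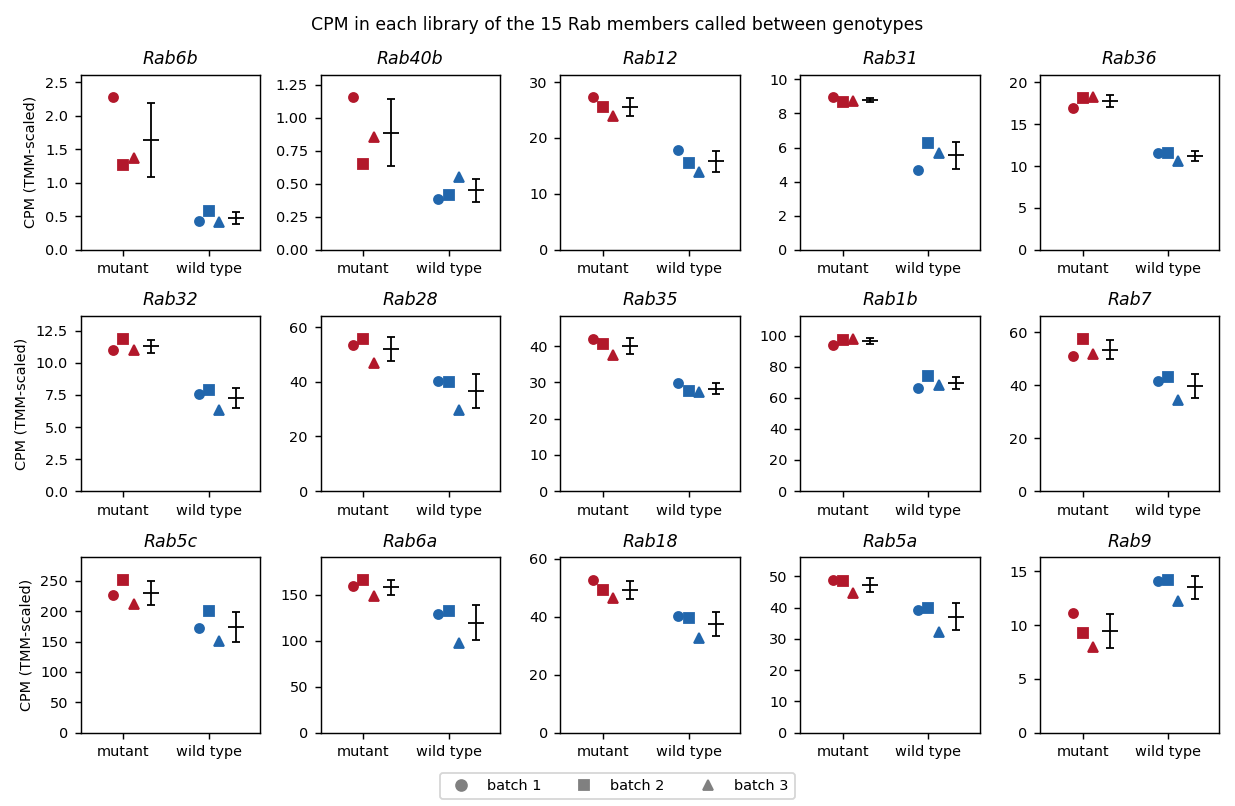
CPM in each library of the 15 Rab members called between genotypes, mutant left and wild type right, with a symbol per batch and the mean ± SD (n = 3) in black; axes start at 0. In all 15 panels, the 3 mutant libraries lie apart from the 3 wild-type libraries, below them for Rab9 and above them for the others. The panels were picked by the test on these same libraries, and 36.3% of all genes did not overlap. Rab6b and Rab40b reached the level shared by all rows through mutant libraries.

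Of 5 Rabs grouped under exocytic and polarised transport, 1 rose, Rab12, and its described route is another one. Rab12, which acts between recycling endosomes and lysosomes (Entrez 19328, chr17:66494512-66519750), had 27.3, 25.5 and 24.0 CPM in mutant libraries and 17.8, 15.6 and 14.0 CPM in wild-type libraries. The genotypes were apart, with differences of 0.61, 0.71 and 0.78 on the log2 scale within batches 1, 2 and 3. The log2 fold change was 0.70 ± 0.12 (SE; edgeR adjusted p = 0.000343), and all 19 alternatives called it. Rab8b averaged 201.1 ± 14.2 CPM (SD) in mutant and 168.6 ± 20.6 CPM (SD) in wild-type pools (n = 3 each; adjusted p = 0.137 by edgeR, 0.000472 with the block), and Rab13 averaged 33.6 ± 4.55 CPM (SD) in mutant and 28.2 ± 4.35 CPM (SD) in wild-type pools (adjusted p = 0.204 by edgeR, 0.00236 with the block). Rab8a, a Rab of exocytosis and cilia, had 7.34, 9.35 and 8.49 CPM in mutant libraries and 7.27, 8.77 and 8.91 CPM in wild-type libraries, with a log2 fold change of 0.012 ± 0.15 (SE; edgeR adjusted p = 0.964). Rab10 had 263.3, 241.6 and 256.1 CPM in mutant libraries and 274.8, 246.0 and 217.4 CPM in wild-type libraries, with 0.044 ± 0.11 (SE, adjusted p = 0.830 by edgeR). The value of Rab10 is uncertain, since its span overlaps the noncoding gene Rab10os, which was counted too (log2 fold change -0.12), and TruSeq RNA v2 libraries carry no strand.

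Among endoplasmic reticulum and Golgi members 4 of 11 were called higher, with Rab6b among them through its mutant libraries. Rab6b (Entrez 270192, chr9:103111667-103185276), the second Rab6 gene and in mammals known from neurons, had 2.27, 1.27 and 1.37 CPM in mutant libraries and 0.425, 0.582 and 0.420 CPM in wild-type libraries. These values rest on 61, 31 and 37 counts in mutant and 11, 14 and 13 counts in wild-type libraries. The fold change was 3.46, the largest of the family (log2 1.79 ± 0.31, SE), given as a description since a rise was favoured beforehand. Its relative Rab6a, which works within the Golgi (Entrez 19346, chr7:100607575-100641268), had 159.3, 165.6 and 148.6 CPM in mutant libraries and 129.0, 132.2 and 97.7 CPM in wild-type libraries, a smaller rise (0.40 ± 0.12, SE, adjusted p = 0.0250 by edgeR), called in 4 of the 9 fits with a library or batch left out. The span of Rab6a overlaps Mrpl48, which averaged 3.56 CPM (mutant) and 3.44 CPM (wild type) and was not called, so the value of Rab6a is uncertain.

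Rab1b, which carries vesicles from the endoplasmic reticulum to the Golgi (Entrez 76308, chr19:5099207-5106996), had 94.2, 97.4 and 97.9 CPM in mutant libraries and 66.4, 74.1 and 68.2 CPM in wild-type libraries (0.47 ± 0.11, SE, adjusted p = 0.00362 by edgeR). It is the 1 member on the chromosome of Nxf1 and lies 3.65 Mb from it. Of 181 other genes within 10 Mb of Nxf1, 12.2% were higher and 7.73% lower, close to the shares of all genes. Its paralogue Rab1a averaged 14.5 ± 3.38 CPM (SD) in mutant and 16.1 ± 2.70 CPM (SD) in wild-type pools (n = 3 each) and did not pass (-0.15, adjusted p = 0.555 by edgeR). Rab18, a Rab of lipid droplets and the endoplasmic reticulum (Entrez 19330, chr18:6765167-6791606), had 52.5, 49.1 and 46.3 CPM in mutant libraries and 40.3, 39.4 and 32.6 CPM in wild-type libraries (0.40 ± 0.12, SE, adjusted p = 0.0193 by edgeR). The call of Rab1b was lost in 3 of 9 fits with a library or batch left out, and that of Rab18 in 6 of 9. Rab2b lay just outside the threshold (7.62 ± 0.565 CPM in mutant, 5.73 ± 0.629 CPM in wild-type pools, n = 3 each, SD; adjusted p = 0.0565 by edgeR, 0.00102 with the block and 0.0707 by DESeq2 with the block) and its span overlaps Tox4, so its value is uncertain. Rab2a, Rab19, Rab30, Rab33b and Rab43 had log2 fold changes between -0.32 and 0.054 and did not pass.

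Among the remaining 4 members 2 were called higher, with Rab40b among them through its mutant libraries. Rab28 (Entrez 100972, chr5:41624973-41708193), known for a role at photoreceptor cilia, had 53.4, 55.7 and 47.1 CPM in mutant libraries and 40.4, 40.0 and 29.6 CPM in wild-type libraries (0.51 ± 0.13, SE, adjusted p = 0.00777 by edgeR), and its call was lost in 3 of 9 fits with a library or batch left out. Rab40b, which pairs a Rab domain with a SOCS box that recruits ubiquitin ligase (Entrez 217371, chr11:121356121-121388251), had 1.16, 0.653 and 0.853 CPM in mutant libraries and 0.386, 0.416 and 0.549 CPM in wild-type libraries. These are 31, 16 and 23 counts in mutant and 10, 10 and 17 counts in wild-type libraries. The log2 fold change of Rab40b (0.96 ± 0.33, SE) is given as a description, since a rise was favoured beforehand. Rab40b and Rab6b reached the level shared by all rows through mutant libraries. Rab5a and Rab40b were the called members closest to the threshold. Rab40c (0.34) and Rab24 (-0.15) did not pass.

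**Figure D4:**
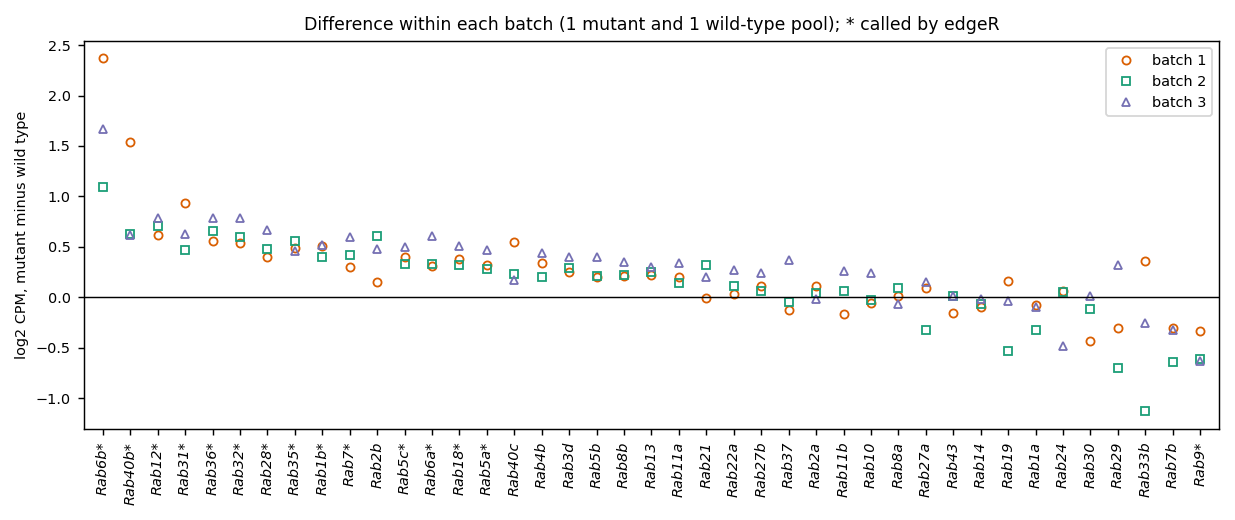
Log2 CPM of the mutant minus the wild-type pool within each batch, for the 41 Rab members ordered by their edgeR log2 fold change, with an asterisk on the 15 called. Rab6b has the largest values in all 3 batches (2.37, 1.10 and 1.66), Rab9 is below 0 in all 3, and the low member Rab33b is above 0 in batch 1 and below 0 in batches 2 and 3.

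Paralogues of 1 subfamily were set against each other per kilobase within a library, which does not depend on the scaling of libraries. Coding sequences of the pairs were 64.3% to 79.2% identical, and how the counting placed reads shared by both is unknown. Rab1a made up 11.8%, 7.65% and 8.72% of the Rab1a and Rab1b pair in mutant libraries and 16.7%, 11.97% and 12.8% in wild-type libraries. The genotypes were apart, narrowly so between mutant library 1 and wild-type library 2. Rab40b made up 35.0 ± 3.79% of the Rab40b and Rab40c pair in mutant and 25.8 ± 4.01% in wild-type pools (n = 3 each, SD). Rab2a made up 89.5 ± 1.66% of the Rab2 pair in mutant and 91.7 ± 0.406% in wild-type platelets. These were barely apart, at 91.4102% in mutant library 1 and 91.413% in wild-type library 3, and Rab2b overlaps Tox4. Rab6a made up 99.3% of the Rab6 pair in mutant and 99.7% in wild-type platelets. Rab40b and Rab6b reached the level shared by all rows through mutant libraries, so the shifts in their pairs were favoured beforehand. Shares of Rab5a against Rab5c (12.1 ± 0.607% in mutant, 12.5 ± 0.718% in wild type), Rab8a against Rab8b (9.01 ± 1.29% in mutant, 10.6 ± 2.07% in wild type) and Rab27a against Rab27b (0.908 ± 0.265% in mutant, 1.02 ± 0.280% in wild type) overlapped between genotypes but were lower in mutant in all 3 batches. Of 12 pairs, 6 did not overlap, the Rab40 and Rab6 pairs among them. Within batches the share of the first gene was lower in mutant in all 3 batches for 8 pairs and higher in all 3 for 4 pairs. Pairs of other genes were not examined, so these counts have no background and say nothing particular of Rab paralogues. Pairs that share Rab5a, Rab5b or Rab5c are not separate measurements. These are descriptions and were not tested.

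**Figure D5:**
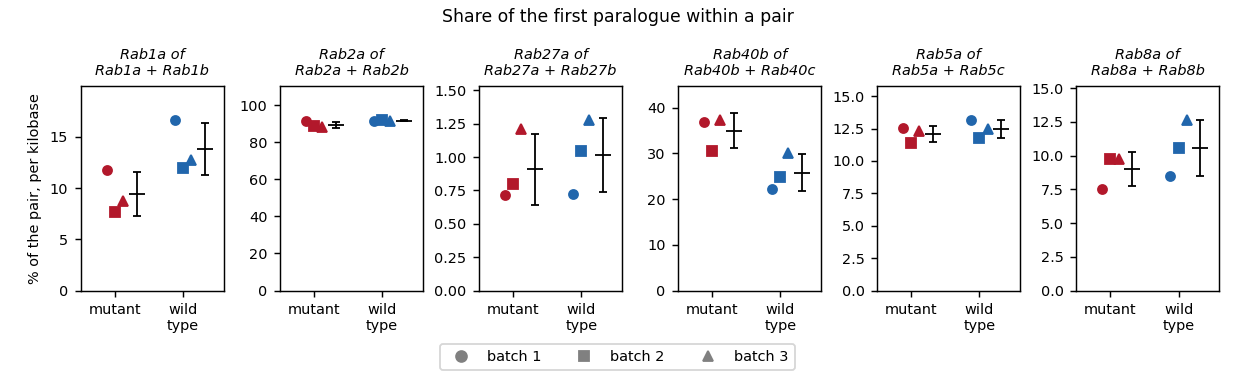
Share of the first named paralogue in a pair, in percent of the pair's level per kilobase, for each library (symbols by batch), with mutant left and wild type right and the mean ± SD (n = 3) in black. The share of Rab1a is lower and that of Rab40b higher in mutant platelets, while those of Rab5a against Rab5c, Rab8a against Rab8b and Rab27a against Rab27b overlap over all libraries and are lower in mutant within each batch. Rab40b reached the level shared by all rows through mutant libraries, so its shift was favoured beforehand.

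The members share a short coding sequence, with a median of 639 bases against 1341 over 9074 genes with a GENCODE coding transcript. Across the 41, the log2 fold change had a Spearman correlation of -0.037 with the deposited gene length, 0.21 with transcript GC content, 0.25 with exon number and 0.20 with the level per kilobase. Over all 9074 genes these were 0.058, 0.088, 0.036 and 0.25. These are correlations across genes in the same 6 libraries, and genes are not independent replicates.

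Genes that act on Rabs were described from lists of GEFs, GAPs, effectors and the prenylation and recycling machinery. Of 124 partners with a row, 26 were higher and 3 lower (20.97% higher), against 12.9% higher and 9.16% lower of all genes, with a median log2 fold change of 0.087. With the block 37 were higher and 13 lower, against 22.0% and 18% of all genes. Of 47 GEF genes 13 were higher (27.7%) and 0 lower (17 and 6 with the block). Dennd4c, a DENN-domain exchange factor, averaged 51.1 ± 6.56 CPM (SD) in mutant and 21.6 ± 3.12 CPM (SD) in wild-type pools (n = 3 each), with a log2 fold change of 1.24 ± 0.13 (SE; edgeR adjusted p = 1.53e-06). Trappc10 (0.59) and Trappc2 (0.59), subunits of the TRAPP exchange complexes, and Madd (0.48), an exchange factor for Rab3 and Rab27 proteins, also rose. Trappc2 overlaps Ofd1, so its value is uncertain. The call of Trappc10 was lost without batch 2 (adjusted p = 0.0660 by edgeR), and that of Madd without batch 1 and without batch 2 (up to 0.107).

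Of 31 GAP genes 5 were higher (16.1%, against 12.9% of all genes) and 1 lower (6 and 2 with the block). Grtp1, a TBC-domain gene, averaged 23.9 ± 0.749 CPM (SD) in mutant and 11.01 ± 0.794 CPM (SD) in wild-type pools (n = 3 each; log2 fold change 1.12 ± 0.12, SE, adjusted p = 1.46e-06 by edgeR). Tbc1d9 (0.81), Tbc1d22a (0.45) and Tbc1d9b (0.46) were higher, with calls lost in 1, 4 and 4 of 9 fits with a library or batch left out (adjusted p up to 0.0699, 0.157 and 0.154 by edgeR). These were the fit without batch 1 for Tbc1d9, those without mutant replicate 1, mutant replicate 2, batch 1 or batch 2 for Tbc1d22a, and those without mutant replicate 2, wild-type replicate 1, batch 1 or batch 2 for Tbc1d9b. Of 38 effector genes 6 were higher (15.8%) and 0 lower (12 and 2 with the block). The dynein adaptor genes Bicd1 and Bicd2, which Rab6 proteins recruit, both rose. Bicd1 averaged 4.60 ± 0.512 CPM (SD) in mutant and 1.34 ± 0.150 CPM (SD) in wild-type pools, and Bicd2 averaged 579.6 ± 48.8 CPM (SD) in mutant and 330.5 ± 36.7 CPM (SD) in wild-type pools (n = 3 each), with log2 fold changes of 1.79 and 0.81 (adjusted p = 2.51e-06 and 6.46e-05 by edgeR). Inpp5b (0.85), a phosphoinositide phosphatase, and Ehbp1l1 (0.75), an effector of Rab8 and Rab10 proteins, rose as well. Bicd1, Bicd2, Inpp5b, Ehbp1l1, Grtp1, Dennd4c and Trappc2 were called in all 9 of those fits.

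Chosen after their values were seen, Unc13d, which encodes the Rab27 effector Munc13-4 of granule release, averaged 307.7 ± 19.9 CPM (SD) in mutant and 207.4 ± 14.5 CPM (SD) in wild-type pools (n = 3 each; 0.57 ± 0.11, SE, adjusted p = 0.000787 by edgeR, and 0.0563 without batch 2). Sytl4, another Rab27 effector, averaged 660.9 ± 17.95 CPM (SD) in mutant and 706.6 ± 84.2 CPM (SD) in wild-type pools and did not pass (-0.10, adjusted p = 0.618 by edgeR). Hps4, a subunit of the exchange factor of Rab32 and Rab38, averaged 4.04 ± 0.143 CPM (SD) in mutant and 2.37 ± 0.181 CPM (SD) in wild-type pools (0.77, adjusted p = 0.00348 by edgeR), overlaps Srrd and was not called without batch 1 or batch 2 (adjusted p up to 0.0588).

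Of 8 prenylation and recycling genes 2 were higher (25%) and 2 lower (2 and 3 with the block). Chml, 1 of the 2 lower genes, encodes an escort protein that presents Rabs for prenylation. It averaged 0.468 ± 0.206 CPM (SD) in mutant and 1.59 ± 0.232 CPM (SD) in wild-type pools (n = 3 each; log2 fold change -1.74 ± 0.31, SE). Mutant libraries 1 and 2 had 0.373 and 0.327 CPM, and wild-type libraries had 1.42 to 1.86 CPM. Chml thus reached the level shared by all rows through wild-type libraries, and its fall is given as a description. Its paralogue Chm had -0.14 and did not pass. Gdi2, which overlaps Tasor2, averaged 423.8 ± 15.3 CPM (SD) in mutant and 502.7 ± 27.6 CPM (SD) in wild-type pools and did not pass (-0.25, adjusted p = 0.120 by edgeR, 0.00111 with the block). Rabac1 (0.46), a membrane protein that binds prenylated Rabs, was higher and Rabif (-0.55), which binds nucleotide-free Rabs, was lower. Their calls were lost in 5 and 6 of the 9 fits with a library or batch left out (adjusted p up to 0.197 and 0.258 by edgeR). For Rabac1 these were the fits without mutant replicate 1, mutant replicate 2, wild-type replicate 1, batch 1 or batch 2, and for Rabif those without mutant replicate 1, mutant replicate 3, wild-type replicate 3 or any 1 batch.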

How the data were processed

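The deposited values are raw counts, whole numbers with an Entrez identifier and a gene length in each row. The submitters' processing notes name the tools CASAVA 1.8.2, Subread and featureCounts and the build mm10. Counting settings, including strand and multiply mapped reads, are unknown. Pseudogenes of Rab5a, Rab7, Rab9b and Rab11b exist in RefSeq and have no row here. Of 9822 Entrez identifiers, 9636 were named from RefSeq (GRCm38.p6, the assembly of mm10), which also gave gene positions and start regions. Exon number, GC content and transcript lengths come from GENCODE M21.

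Genotypes were compared by edgeR 4.0.16, run under R 4.3.3 (TMM scaling, filterByExpr, which removed 0 genes, a robust quasi-likelihood model of genotype alone, two-sided tests, Benjamini-Hochberg adjusted over all genes). The SE is the size of the log2 fold change divided by the square root of F. Simulated counts with known changes were used to test the fits. Chosen after seeing the data were the ranges, sums and lowest library without TMM factors, and counts without Rab6b and Rab40b. Other alternatives were other scalings and filters, DESeq2 1.42.0, limma-voom (limma 3.58.1), a threshold of 0.01, libraries or batches left out, and the batch as a block. The labels give each batch 1 pool of each genotype, so the batch pairs the libraries. Deviations from group means correlated at 0.41, 0.25 and 0.47 within batches and at most at -0.0082 between them. No replicates agreed within sampling noise (mean chi-square per gene at least 14.5). The biological coefficient of variation was 14.2%, and 5.73% with the block. P-values measure the spread between 3 pools per genotype.

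Members, role groups, partner lists and the rule for named genes were chosen with earlier results of these data known. Values per library were given for called members, the 5 most abundant per kilobase, and Rab27a, Rab27b, Rab32, Rab8a, Rab6b and Rab7 for their known roles (Rab38 and Rab4a, also on that list, had no row). Up to 4 called partners per list were named by smallest p. The values of 1 called partner are not reported here.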

Additional observations from a re-analysis of the deposited data

How the results depend on the processing

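The median log2 fold change of the Rab members stayed positive under each of the 19 alternatives run, between 0.09 and 0.26. The lowest value came with genes of a mean CPM of at least 10, which kept 26 members and moved the same genes by -0.17 on the log2 scale. Under that setting 10 members were higher and 2 lower (24.0% and 25% of all genes), the added one being Rab14. At an adjusted p of 0.01, 8 were higher and 0 lower (7.81% and 5.75% of all genes). Leaving out single libraries or batches gave 4 to 15 higher and 0 to 1 lower members. Of the 124 partner genes with a row, 17 were higher with library size alone (9.73% of all genes). At a mean CPM of at least 10, where fewer partners were tested, 13 were higher (24.0% of the genes kept). In fits with a library or batch left out, 9 to 26 were higher (4.94% to 14.2% of all genes). Partner genes lower numbered 5 with upper-quartile factors (10.4% of all genes) and 5 with library size alone (9.25%). They numbered 6 at a mean CPM of at least 10 (25%), 13 with the edgeR block (18%) and 5 with the DESeq2 block (10.3%). At an adjusted p of 0.01 there was 1 (5.75%), and with a library or batch left out 1 to 6 (5.29% to 10.2%). The cause was not tested.

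With the batch as a block, all 15 called members stayed called by edgeR (21 higher and 1 lower in all) and 14 by DESeq2 (19 and 1), which gave Rab40b no adjusted p. Apart from the calls given with their blocked values, the block changed no other call of a Rab member by edgeR. Rab5a was lost with DESeq2 size factors and by DESeq2, Rab5c, Rab6a and Rab5a without the 10 most abundant genes, and Rab40b with upper-quartile factors, library size alone, DESeq2 and limma-voom.

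Uncalled values near 0 changed sign. Rab22a had -0.029 and Rab27b -0.033 at a mean CPM of at least 10. Rab10 had -0.029 with library size alone, -0.0018 without the 10 most abundant genes, -0.12 at a mean CPM of at least 10 and -0.038 to 0.090 with a library or batch left out. Rab27a had -0.24 to 0.082 and Rab8a -0.12 to 0.068 with a library or batch left out, and Rab8a had -0.033 with upper-quartile factors, -0.076 with library size alone and -0.032 without the 10 most abundant genes. Members under 2 CPM, such as Rab6b, Rab40b, Rab27a and Rab7b, rest on few counts.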
